A study of Mus musculus with 20 samples.

Results

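Levels of 40 axon guidance genes were described in lumbar and sacral dorsal root ganglia (DRG) of the late mouse embryo. The 40 genes were the listed Eph receptors, ephrins, Slits, Robos, netrins, netrin-Gs and netrin receptors, chosen by name, and their symbols mapped to 42 Ensembl identifiers among 29049 genes with a value. Of these, 31 genes (32 identifiers) passed the filter on low values, a group mean of at least 1 RPKM (a read density corrected for gene length and library size) on the log2 scale in at least 1 group, which 14529 genes passed in all. RNA sequencing had been performed on ganglia from spinal levels L4-5 (lumbar) and L6-S1 (sacral) of 5 male and 5 female C57Bl6 embryos at E18.5, shortly before birth. Each embryo gave 1 library per level, making 5 libraries for each sex at each level. No transgene, mutation or treatment is given for any embryo. Whole ganglia were homogenized, so each library holds RNA from neurons, glia, vessels and connective tissue, and litters were not given. In such bulk samples, fewer cells of a type and less RNA per cell cannot be told apart.

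Eph receptors are receptor tyrosine kinases that bind ephrins on neighbouring cells: ephrin-As are held by a lipid anchor and mostly bind EphA receptors, ephrin-Bs span the membrane and mostly bind EphB receptors and EphA4, and signals can run into either cell. Slits are secreted proteins that repel axons through Robo receptors. Netrins are laminin-related proteins that attract axons through DCC and neogenin or repel them when Unc5 receptors take part, while netrin-Gs are anchored to the membrane and bind postsynaptic partners instead. In the developing DRG these families are known for guiding sensory axons to the cord and the periphery and for branching, and several of them also act in blood vessels, meninges and other mesenchyme.

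Libraries held between 19606261 and 39678956 recovered reads. The 2 mitochondrial ribosomal RNA genes took from 17.83% to 61.05% of them, most in both libraries of donors M5 and F7. The sacral libraries had more Hoxd10 and Hoxd11 and less Hoxc8 and Hoxb9 than the lumbar library of the same embryo in all 10 donors, and Xist and 4 Y-linked genes separated the sexes as labelled. Sensory neuron markers such as Stmn2, Prph and Isl1 were abundant at both levels. The p-values below are over embryos, from limma with donor as a block and Benjamini-Hochberg adjustment over all 14529 genes.

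On the RPKM scale, which is corrected for gene length, Efnb2 (ephrin-B2) was the most abundant of these genes, with a median of 20.8 RPKM over the 10 lumbar libraries and 20.5 over the 10 sacral ones. Neo1 (neogenin, a netrin and RGM receptor) followed with medians of 15.9 and 21.0, and Efna5 (ephrin-A5) with 12 and 11. The ranges of Efnb2 and Neo1 overlapped at each level. Below these stood Efnb1 (7.02 and 9.16), Robo1 (5.99 and 5.83), Ntng1 (6.63 and 5.89) and Robo2 (6.27 and 5.82), whose ranges also overlapped one another. Summed over each family, the ephrin-Bs had the highest level, with medians of 29.8 RPKM in lumbar and 34.4 in sacral libraries, and the Slits and netrins were low, at 5.82 and 7.07 and at 3.6 and 4.53. Ligands and receptors were both present in the ganglia. The netrin receptor Dcc was near the bottom of the order, at 0.397 and 0.458.

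**Figure D1:**
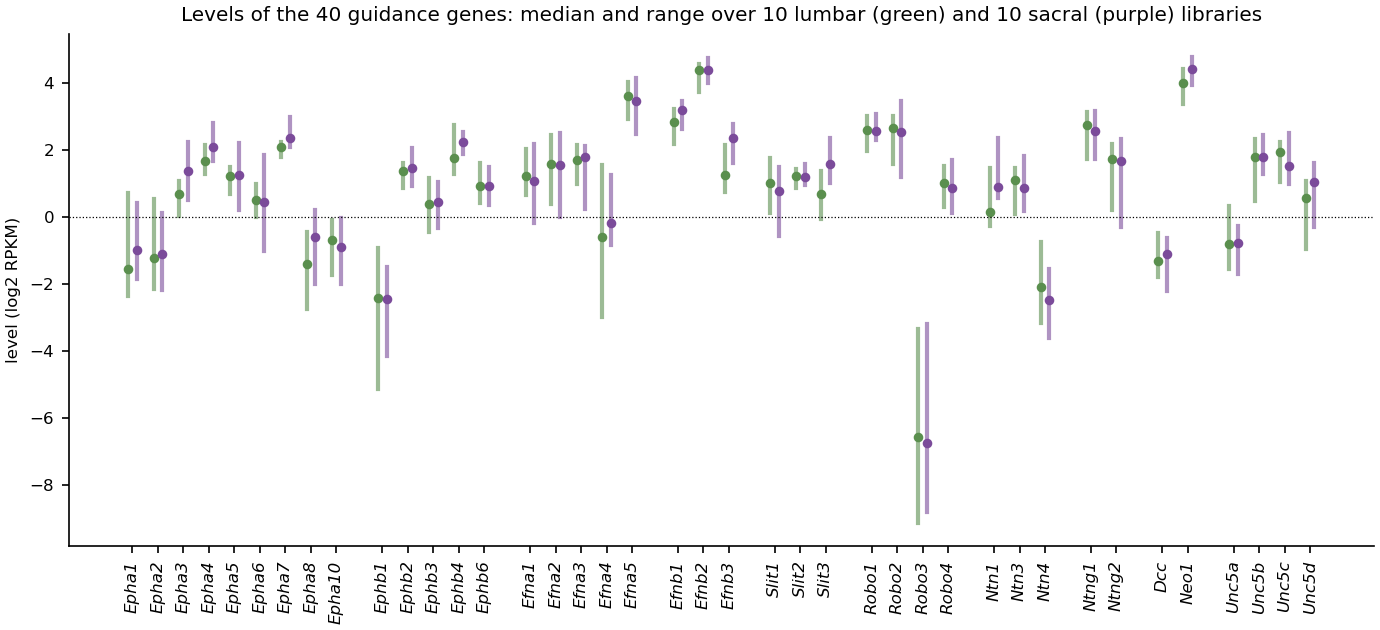
Levels of the 40 genes by family. The vertical axis is log2 RPKM, the points are medians and the bars run from the lowest to the highest of 10 lumbar (green) or 10 sacral (purple) libraries, with a library without reads set to 0.5 reads. Efnb2 and Neo1 are highest, at medians of 4.36 to 4.39 in sacral libraries, and Robo3 is lowest.

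Differential expression analysis identified 8 of these genes as upregulated in sacral DRG and 0 as upregulated in lumbar DRG. They were the ligands Efnb3, Efnb1, Slit3 and Ntn1 and the receptors Epha3, Epha7, Ephb4 and Neo1. They made up 25.0% of the 32 tested identifiers, and 2.7% of all tested genes were called higher in sacral DRG (6.73% in either direction). The members were chosen with earlier results of these data known, so the 2 shares are no independent test. At an unadjusted p below 0.05 there were 11 of the 32, beside 3501 of all 14529 tested genes, counted in either direction. The other 3 members were Epha4, Efna4 and Unc5d, all with higher sacral values. Efna4 passed the filter only through sacral females, with a group mean of 0.61 log2 RPKM, so its place here is no support for a sacral rise. The median difference over the 32 identifiers was 0.04 on the log2 scale beside -0.05 over all tested genes, so most members lay near 0. The 8 called genes came from 6 of the families, and no ephrin-A, Robo, netrin-G or Unc5 gene passed the threshold. In a fit without the donor block, 3 of the 8 (Epha3, Efnb3 and Slit3) passed it. The same 3 passed it without donor F10. With no filter on low values 4 did, with 1.75% of 29049 genes called. Without donor M5 or donor F7 the count was 5. With the level of fibroblast and meninges markers or of glial markers as a covariate, 0 of the 8 passed. Calls over all tested genes also fell under each covariate, with the shares given further on. Of 12 fibroblast and meninges markers, 7 were called higher in sacral DRG, and of 12 glial markers 6 were called lower, as described further on.

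**Figure D2:**
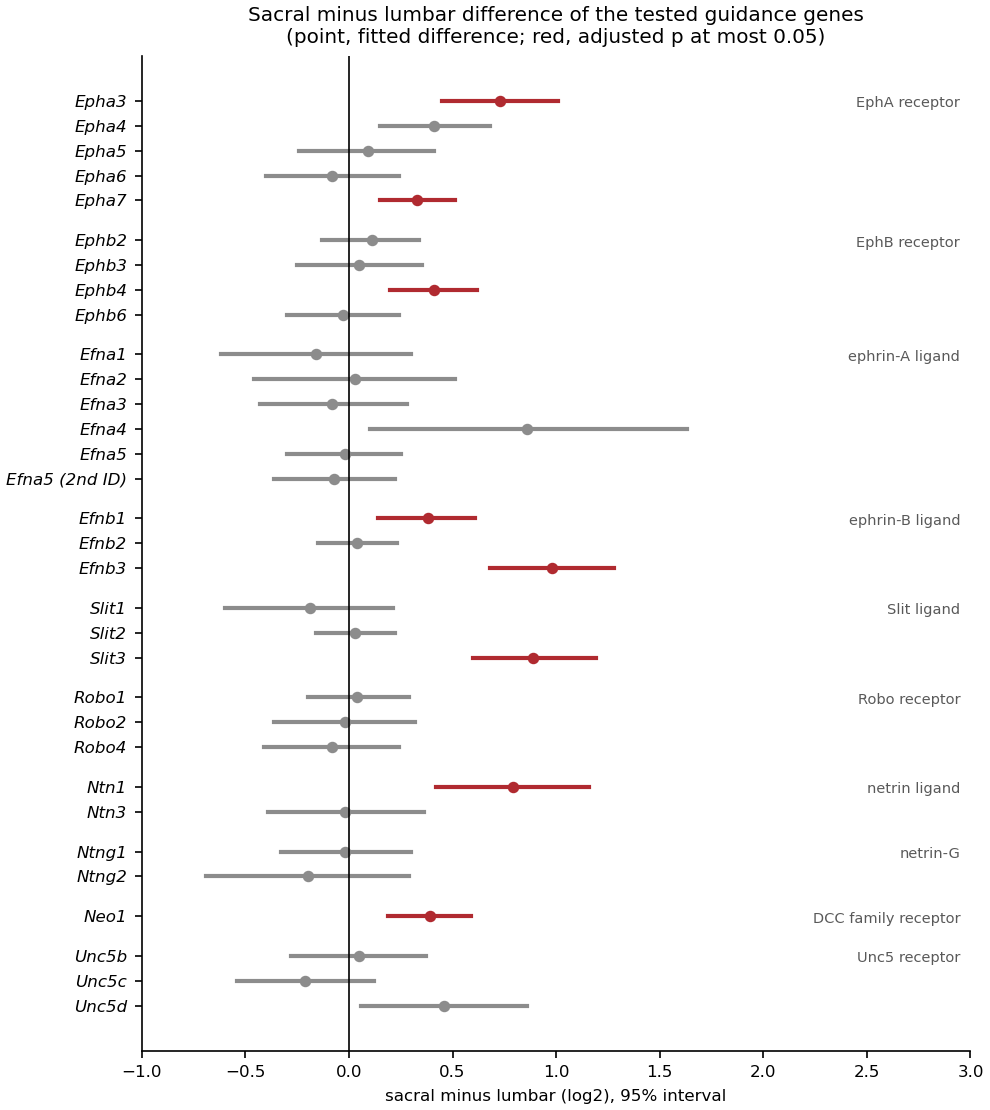
Fitted sacral minus lumbar difference of the 32 tested identifiers by family. The horizontal axis is the log2 difference, points are the fitted values, bars are 95% intervals and red marks an adjusted p of at most 0.05. The 8 red genes lie between 0.33 (Epha7) and 0.98 (Efnb3), while the ephrin-As other than Efna4, the Robos and the netrin-Gs lie around 0.

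Promoter sequence was available for 6 of the 8 called genes in the RefSeq table used here, and Efnb3 and Ntn1 had none in it. The 250 bases before the annotated start are printed for the 3 of the 6 with the smallest adjusted p. They are in GRCm38.p6, a build other than the mm9 of the expression files, 5′ to 3′ on the strand of the gene, with capitals marking the GC box GGGCGG or its complement CCGCCC where they occur.
Slit3, chr11:35121206-35121455, plus strand: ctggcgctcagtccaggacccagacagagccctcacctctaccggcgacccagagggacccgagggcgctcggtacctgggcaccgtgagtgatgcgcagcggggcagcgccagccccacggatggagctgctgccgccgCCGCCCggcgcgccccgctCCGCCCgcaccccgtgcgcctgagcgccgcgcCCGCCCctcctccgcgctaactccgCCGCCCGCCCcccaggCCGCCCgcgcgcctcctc
Epha3, chr16:63864176-63864425, minus strand: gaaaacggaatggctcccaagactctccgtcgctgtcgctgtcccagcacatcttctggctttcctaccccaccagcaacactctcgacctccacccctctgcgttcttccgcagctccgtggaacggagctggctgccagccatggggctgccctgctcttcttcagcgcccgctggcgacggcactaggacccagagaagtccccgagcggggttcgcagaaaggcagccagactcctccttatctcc
Neo1, chr9:59036442-59036691, minus strand: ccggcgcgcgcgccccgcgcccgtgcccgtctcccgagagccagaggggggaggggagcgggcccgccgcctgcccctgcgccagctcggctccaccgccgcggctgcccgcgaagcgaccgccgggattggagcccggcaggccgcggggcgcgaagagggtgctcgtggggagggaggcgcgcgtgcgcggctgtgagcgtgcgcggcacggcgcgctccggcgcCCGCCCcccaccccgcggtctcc
The Slit3 window held 6 GC boxes, counted on both strands and with overlaps, the Neo1 window 1 and the Epha3 window 0. GC content was 78.8%, 83.2% and 62.8%. A GC box was found in 71.4% of the 35 members with a window and in 32.9% of all 27025 windows, whose median GC content was 52.0% beside 64.8% in the members. The letters TTTATG, a core recognised by posterior Hox factors, were in none of the member windows and in 11.1% of all, and TATAAA was in 5.71% and 13.0%. These matches describe letters only, and no binding was measured.

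Among the ephrin-B ligands, which act as ligands and as receptors for reverse signals, 2 of 3 were upregulated in sacral DRG. Efnb3 (ephrin-B3, chromosome 11, 69367594 to 69373707 in mm9, known as a midline barrier to axons) ranged from 0.73 through a median of 1.24 to 2.15 log2 RPKM in lumbar libraries and from 1.60 through 2.35 to 2.76 in sacral ones. It was higher in the sacral library of all 10 embryos, and 6 sacral libraries lay above every lumbar one. The fitted difference was 0.98 ± 0.15 (SE), 1.97-fold, with an adjusted p of 0.000516. With the fibroblast or the glial marker covariate in limma, it was 0.68 (adjusted p = 0.106) or 0.84 (adjusted p = 0.142). Efnb1 (ephrin-B1, X chromosome, 96331469 to 96344330) ranged from 2.17 through 2.81 to 3.22 in lumbar and from 2.62 through 3.19 to 3.45 in sacral libraries. The levels overlapped and 8 of 10 embryos were higher in sacral DRG, for a difference of 0.38 ± 0.11 (adjusted p = 0.0459). Efnb1 lost the call without any 1 of 8 donors (all but M8 and F9), with adjusted p-values up to 0.146. Efnb2, the most abundant, ranged from 3.71 through 4.38 to 4.56 and from 3.98 through 4.36 to 4.72. Its levels overlapped almost wholly, and its difference of 0.04 ± 0.09 had a 95% interval of -0.15 to 0.23.

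None of the 5 ephrin-A genes, the membrane-anchored ligands of EphA receptors, passed the threshold. Efna5, the most abundant of them, ranged from 2.90 through 3.59 to 4.02 log2 RPKM in lumbar and from 2.46 through 3.45 to 4.13 in sacral libraries. The sacral libraries spread more widely on both sides, and the difference was -0.02 ± 0.13 (95% interval -0.30 to 0.25). A second Efna5 identifier lies inside the first and shares 2416 exon bases with it, so its values (difference -0.07 ± 0.14) are uncertain and are no separate measurement. Efna3 ranged from 0.96 through 1.68 to 2.15 and from 0.24 through 1.77 to 2.10. These overlapped, with a difference of -0.08 ± 0.17 (95% interval -0.43 to 0.28). Efna4 had the largest difference of the family, 0.86 ± 0.37, and an adjusted p of 0.159. Its lumbar libraries ran from -3.00 through -0.61 to 1.54 and its sacral libraries from -0.85 through -0.20 to 1.25, with as few as 7 reads in a library. The widest spread of a tested member was thus at a low level, and 8 of 10 embryos were higher in sacral DRG. Efna1 (-0.16 ± 0.22) and Efna2 (0.03 ± 0.23) had medians between 1.07 and 1.57.

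Of the EphA receptors, 2 of 5 tested genes were upregulated in sacral DRG. Epha3 (chromosome 16, 63543364 to 63863984, a receptor for ephrin-As that takes part in motor axon and heart cushion development) ranged from 0.02 through 0.68 to 1.05 log2 RPKM in lumbar and from 0.50 through 1.37 to 2.23 in sacral libraries. All 10 embryos were higher in sacral DRG and 9 of 10 sacral libraries lay above every lumbar one, the exception being M3, whose lumbar library was also lowest. The difference was 0.73 ± 0.13, 1.66-fold, with an adjusted p of 0.00305. The fibroblast and glial marker covariates gave 0.40 (adjusted p = 0.303) and 0.49 (adjusted p = 0.311) in limma. Epha7 (chromosome 4, 28740281 to 28894649), a repulsive receptor for ephrin-As, ranged from 1.79 through 2.08 to 2.23 and from 2.08 through 2.33 to 2.97. It too was higher in all 10 embryos, by 0.09 in donor M1 up to 0.84 in F7, and the fitted difference of 0.33 ± 0.08 had an adjusted p of 0.025. A change of the same sign in all 10 donors towards sacral DRG was seen in 5 of the 32 identifiers (Epha3, Epha7, Efnb3, Neo1 and Unc5d) and in 0.895% of all tested genes. Without M5, M8, F7 or F10 the Epha7 call was lost (adjusted p up to 0.0887), as it was with donor as a fixed effect.

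Epha4, which binds both ephrin classes and keeps limb motor axons to their path, had about the same size of difference as Ephb4 and did not pass the threshold. Its lumbar libraries ran from 1.26 through 1.66 to 2.13 and its sacral libraries from 1.65 through 2.09 to 2.80. These overlapped, with 8 of 10 embryos higher in sacral DRG, for a difference of 0.41 ± 0.13 (adjusted p = 0.0563). Epha5, the receptor paired with ephrin-A5 in topographic mapping, stood at medians of 1.21 and 1.24, and its difference was 0.09 ± 0.16 (95% interval -0.24 to 0.41). Epha6, whose values differed between the sexes and are given below, had a level difference of -0.08 ± 0.15.

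Of the 4 EphB receptors tested, 1 was called. Ephb4 (chromosome 5, 137791337 to 137819897), the venous receptor for ephrin-B2, ranged from 1.28 through 1.76 to 2.72 log2 RPKM in lumbar and from 1.87 through 2.22 to 2.52 in sacral libraries. The highest value was lumbar, from donor F8, but 7 lumbar libraries lay below every sacral one and 8 of 10 embryos were higher in sacral DRG. The difference was 0.41 ± 0.10, 1.33-fold, with an adjusted p of 0.0227, which rose past the threshold without M3, M5, F3 or F10 (up to 0.0817). Endothelial markers moved unevenly beside it: of 6 tested, Cdh5 and Tek were called higher in sacral DRG and none lower, while 3 of the 6 had a positive difference, and the median over the list was higher in sacral DRG in 4 of 10 donors. The summed level of the 8 listed was 28.3 to 53.0 RPKM in lumbar and 37.8 to 66.3 in sacral libraries. The part of vessels in the Ephb4 difference was not tested. Ephb2, a receptor for commissural and sensory axons, ranged from 0.84 through 1.37 to 1.60 and from 0.91 through 1.46 to 2.04. The groups overlapped and the difference of 0.11 ± 0.11 had an interval of -0.13 to 0.34. Ephb3 (0.05 ± 0.14) and the kinase-inactive Ephb6 (-0.03 ± 0.13) were lower, at medians between 0.39 and 0.92.

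**Figure D3:**
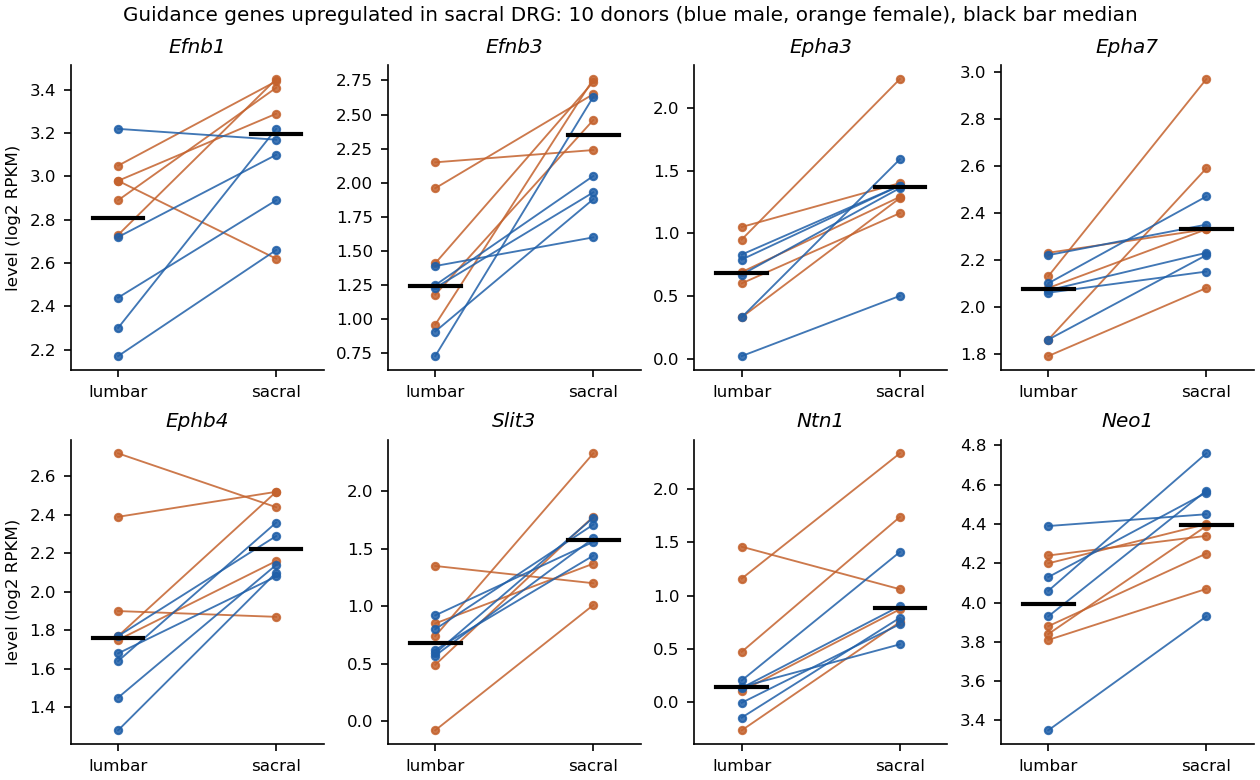
Levels of the 8 genes upregulated in sacral DRG. Each panel has its own vertical axis in log2 RPKM, each line joins the lumbar and the sacral library of 1 embryo (blue male, orange female) and black bars are medians of 10. In Efnb3, Epha3, Epha7 and Neo1 all 10 lines rise, and in Slit3 and Ntn1 all but that of donor F8.

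Of the 3 Slits, only Slit3 passed the threshold. Slit3 (chromosome 11, 34934726 to 35522009), a secreted Robo ligand also made by vascular and mesenchymal cells, ranged from -0.08 through 0.68 to 1.35 log2 RPKM in lumbar and from 1.01 through 1.58 to 2.33 in sacral libraries. Only the lumbar library of F8 reached into the sacral range, and 9 of 10 embryos were higher in sacral DRG. The difference was 0.89 ± 0.14, 1.86-fold, with an adjusted p of 0.00101. It was 0.44 (adjusted p = 0.18) beside fibroblast markers as a covariate and 0.78 (adjusted p = 0.184) beside glial markers. Slit2, the ligand best known for sensory axon branching, ranged from 0.84 through 1.20 to 1.43 and from 0.94 through 1.18 to 1.57. Its levels coincided, and the difference of 0.03 ± 0.09 (95% interval -0.16 to 0.22) ended below the lower bound of 0.60 for Slit3. Slit1 stood at medians of 1.0 and 0.75, with a difference of -0.19 ± 0.19 (95% interval -0.60 to 0.21). The difference between Slit genes in their response to level was not itself tested.

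The Robo receptors did not pass the threshold. Robo1 ranged from 1.96 through 2.58 to 3.01 log2 RPKM in lumbar and from 2.28 through 2.54 to 3.06 in sacral libraries. Robo2, the other main Slit receptor of sensory axons, ranged from 1.58 through 2.65 to 2.99 and from 1.17 through 2.52 to 3.44. Each pair of ranges overlapped almost wholly, with differences of 0.04 ± 0.12 (95% interval -0.20 to 0.29) and -0.02 ± 0.16 (95% interval -0.36 to 0.32). Of the 3 Robos tested, Robo4, the endothelial member, had the largest difference, at -0.08 ± 0.16 (95% interval -0.41 to 0.24). Its libraries ran from 0.29 through 0.99 to 1.50 and from 0.11 through 0.86 to 1.69. Robo4 overlapped between levels.

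Of the netrins, Ntn1 was called and Ntn3 was not. Ntn1 (netrin-1, chromosome 11, 68022866 to 68214325), a guidance cue secreted by the floor plate and by peripheral mesenchyme, ranged from -0.27 through 0.14 to 1.46 log2 RPKM in lumbar and from 0.54 through 0.89 to 2.34 in sacral libraries. Here 8 lumbar libraries lay below every sacral one, the other two being F7 and F8, and 9 of 10 embryos were higher in sacral DRG. The difference was 0.79 ± 0.18, 1.73-fold, with an adjusted p of 0.0123, which became 0.0502 without F10. Of 10 floor plate and spinal cord markers, only Shh was tested, the summed level was 1.50 to 3.40 RPKM in lumbar and 0.644 to 3.37 in sacral libraries, 7 had no reads in some library, and Shh had a difference of -0.53 (adjusted p = 0.163). Their part in the Ntn1 difference was not tested. Ntn3 ranged from 0.07 through 1.08 to 1.45 and from 0.17 through 0.86 to 1.82. These overlapped, with a difference of -0.02 ± 0.18 (95% interval -0.39 to 0.36). The netrin-Gs, which bind NGL proteins at synapses, also overlapped. Ntng1 ranged from 1.73 through 2.73 to 3.12 and from 1.73 through 2.56 to 3.15, with a difference of -0.02 ± 0.15. Ntng2 ranged from 0.20 through 1.71 to 2.17 and from -0.31 through 1.65 to 2.30, with a difference of -0.20 ± 0.23 (95% interval -0.69 to 0.29).

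Among netrin receptors, Neo1 (chromosome 9, 58722486 to 58884248) was the only one called and by far the most abundant. It ranged from 3.35 through 3.99 to 4.39 log2 RPKM in lumbar and from 3.93 through 4.39 to 4.76 in sacral libraries. All 10 embryos were higher in sacral DRG, by 0.06 in M8 up to 0.70 in M7, although the groups overlapped. The difference was 0.39 ± 0.10, 1.31-fold, with an adjusted p of 0.0206. The call was lost without M1, F7 or F10 (adjusted p up to 0.0712). Unc5d, a repulsive receptor of the Unc5 family, was also higher in all 10 embryos yet did not pass, with libraries from -0.97 through 0.54 to 1.07 and from -0.31 through 1.02 to 1.59. Its difference was 0.46 ± 0.19 (adjusted p = 0.154). Unc5b, the vascular member, ranged from 0.46 through 1.77 to 2.31 and from 1.27 through 1.78 to 2.42 (difference 0.05 ± 0.16). Unc5c ranged from 1.02 through 1.93 to 2.23 and from 0.97 through 1.52 to 2.48. It was lower in sacral DRG in 8 of 10 embryos, and its difference of -0.21 ± 0.16 (95% interval -0.54 to 0.12) was not past the threshold.

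The 9 genes below the filter were Epha1, Epha2, Epha8, Epha10, Ephb1, Robo3, Ntn4, Dcc and Unc5a. A short second identifier of Ntng1 was below it too, with 0 to 13 reads per library. Their median levels were at most 0.658 RPKM (Epha8 in sacral libraries). Robo3, the receptor of commissural axons that the spinal cord is known for, had 0 to 17 reads in a library, and Dcc, the netrin receptor of the same axons, had 39 to 202. In the fit with no filter, which called 1.75% of 29049 genes, none of the 9 passed the threshold. Epha8 came closest, with libraries from -2.76 through -1.42 to -0.46 and from -2.02 through -0.61 to 0.20. It was higher in sacral DRG in 9 of 10 embryos, by 0.83 (adjusted p = 0.152).

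Markers of other cell types also differed between the levels. Of 12 fibroblast and meninges markers, 7 (Col1a1, Col1a2, Pdgfra, Col6a1, Col6a2, Foxc1 and Fbln1) were called higher in sacral DRG and 0 lower, and their summed level was 251.0 to 562.0 RPKM in lumbar and 346.0 to 752.0 in sacral libraries. Of 12 Schwann and satellite glia markers, 6 (among them Mbp, S100b and Prx) were lower and 0 higher, at 405.0 to 559.0 and 261.0 to 422.0 RPKM. Of 4 tested cartilage markers, Col2a1 was called higher, and of 12 sensory neuron markers, Snap25, Nefl and Nefm were called lower. Among these 12 neuron markers 0 had a positive difference, and their sum had medians of 2810 RPKM in lumbar and 1730 in sacral libraries. Of 6 markers of large myelinated neurons, Pvalb, Etv1 and Nefh were called lower. Of 10 markers of small nociceptive neurons, Tac1 was called lower and Trpv1, the only 1 with a positive difference, higher. Every marker of these lists had reads in at least 1 library. Skeletal muscle markers varied most, from 23.8 to 459.0 and from 22.5 to 249.0 RPKM, with 0 of 9 called. Sympathetic markers summed to 5.46 to 10.9 and 5.72 to 15.9 RPKM, 0 of 2 tested being called, and Dbh and Slc6a2 were among those without reads in some library.

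Donor F8 stood apart in several lists. Its median fibroblast marker difference was -0.43, whereas the other donors lay between 0.33 and 1.0, and its median over the 8 called guidance genes was 0.09 beside 0.53 to 0.76 in the others. It was also the highest donor in sensory neuron markers, at 0.22, and in those of small nociceptive and large myelinated neurons, at 0.31 and -0.04. Its lumbar library had the highest fibroblast sum of the 10 lumbar ones, 562.0 RPKM, and was the highest lumbar library for 6 of the 8 genes. The sacral library of F7 had the highest fibroblast sum, 752.0 RPKM, and was the highest sacral library for 5 of the 8. Lumbar F8 also held the most reads, 39678956, and sacral F7 the fewest, 19606261. For what share of all tested genes these libraries were highest was not counted. In alternatives added after seeing the data, the mean fibroblast marker level as a covariate left 0 of the 8 past the threshold in limma, with 0.544% of all tested genes called, and the mean glial marker level also left 0, with 0.482%. At an unadjusted p below 0.05 these 2 fits had 5 and 13 of the 32 members. The share of all tested genes at that threshold is not given for these fits, so the counts are not read as an excess. All 8 differences kept their sign in both fits, for example Ntn1 at 0.16 and 0.46 and Neo1 at 0.29 and 0.65. Glial markers were lower in sacral DRG in all 10 donors by their median, so this covariate and the level can hardly be told apart. Fibroblast markers were higher in 9 of 10 donors by their median, so their covariate is not cleanly separate from the level either. The part of tissue makeup in these differences was not tested further. The 2 donors highest in mitochondrial rRNA (M5 and F7) could also be left out, after which 3 of the 8 remained, Epha3, Efnb3 and Slit3.

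**Figure D4:**
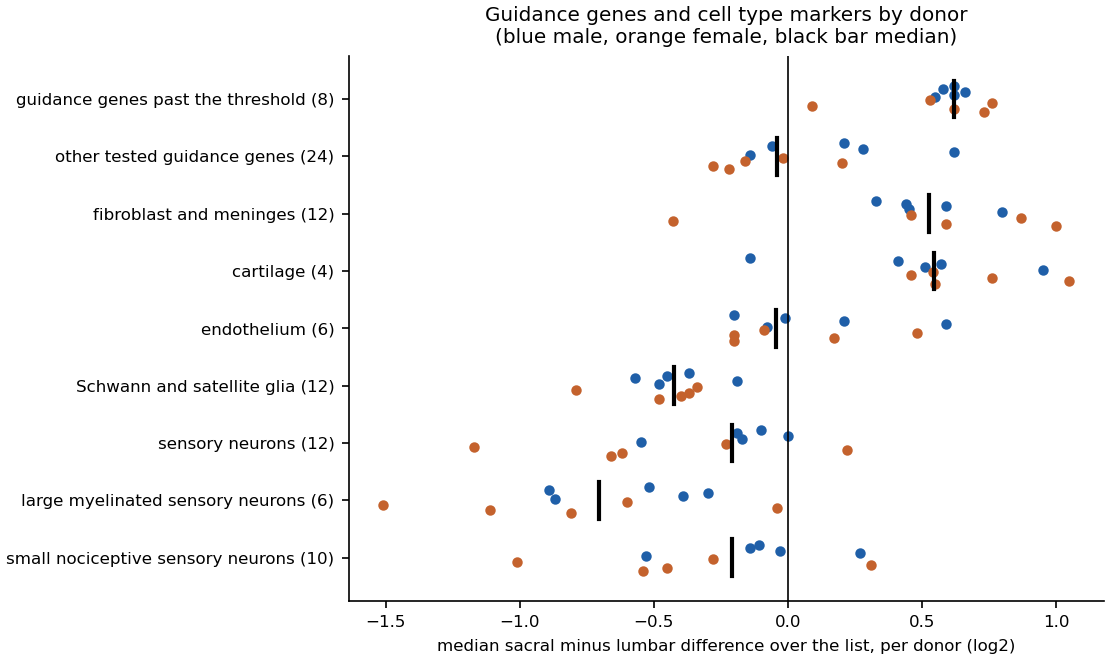
Median sacral minus lumbar difference per donor for the 8 guidance genes past the threshold, the 24 other tested identifiers and 7 marker lists, with the number of genes in parentheses. The horizontal axis is log2, each point is 1 donor (blue male, orange female) and bars are medians. The 8 genes were chosen on these same differences. Donor F8 is lowest both in the 8 genes, at 0.09, and in fibroblast markers, at -0.43.

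Of 56 listed partner genes of the same pathways, 54 identifiers were tested, and 2 were upregulated in sacral and 2 in lumbar DRG. This was near the share over all tested genes (6.73%), and the median difference was 0.00. Chn1 (alpha2-chimaerin, a Rac GTPase-activating protein downstream of EphA4) ranged from 3.15 through 3.85 to 3.91 log2 RPKM in lumbar and from 2.41 through 3.21 to 3.67 in sacral libraries. It was lower in sacral DRG in all 10 embryos, by -0.49 ± 0.11 (adjusted p = 0.0105), though the difference in F8 rounded to 0.0. Prrg4, whose fly relative lowers Robo at the cell surface, differed by -0.91 ± 0.24 (adjusted p = 0.0277, higher in 1 of 10 embryos). Grb10, an adaptor that binds Eph receptors, differed by 0.43 ± 0.11 (adjusted p = 0.0225), and Flrt2, an adhesion protein and Unc5 ligand, by 0.33 ± 0.09 (adjusted p = 0.0337), each higher in 9 of 10. By list, 2 of 18 Eph signalling, 1 of 21 Slit-Robo and 1 of 15 netrin partner identifiers passed. The intracellular Slit-Robo effectors Srgap1 (-0.14 ± 0.11), Srgap2 (0.04 ± 0.08) and Srgap3 (-0.05 ± 0.12) did not. Without the donor block 0 partners passed in limma, and 5 of 54 had an unadjusted p below 0.05, beside 10 with the block. With the block, 3501 of all 14529 tested genes also had an unadjusted p below 0.05. Without M5 or F10, and without both M5 and F7, Chn1 alone passed.

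Between the sexes, 1 member was called. Epha6 (chromosome 16, 59653309 to 60605357), an ephrin-A receptor of the nervous system, was lower in sacral DRG of females than of males. The sacral male libraries of M1, M3, M5, M7 and M8 had 0.77, 1.84, 0.72, 1.32 and 1.12 log2 RPKM, and the sacral female libraries of F3, F7, F8, F9 and F10 had 0.08, -1.02, 0.13, -0.46 and -0.15. The groups did not overlap, which was also true of Efna4 among the members and of 3.96% of all tested genes. Efna4 passed the filter only through sacral females, where it was higher, so its separation is no support. For Epha6, female minus male was -1.44 ± 0.27 (adjusted p = 0.0087), with 1.01% of all tested genes called. In lumbar DRG the same contrast was -0.24 (adjusted p = 0.88) and the libraries overlapped, since the males ran from 0.23 to 0.90 and the females from -0.02 to 0.97. Without donor M3, the highest male, the sacral adjusted p was 0.0552. The mean sacral minus lumbar difference of Epha6 was 0.52 ± 0.29 (SD, n = 5) in the males and -0.68 ± 0.53 (SD, n = 5) in the females, and it was not tested within a sex. In sacral DRG the median female minus male difference was -0.23 over 12 sensory neuron markers and -0.454 over 10 small nociceptive ones. It was 0.067 over 6 large myelinated ones, and none of these markers was called. Sacral minus lumbar, females ran from -1.16 (F7) to 0.16 (F8) for Epha6 and from -1.17 (F7) to 0.22 (F8) for sensory neuron markers. Males ran from 0.25 to 1.03 and from -0.55 to 0.0. The part of tissue makeup in the Epha6 difference was not tested.

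**Figure D5:**
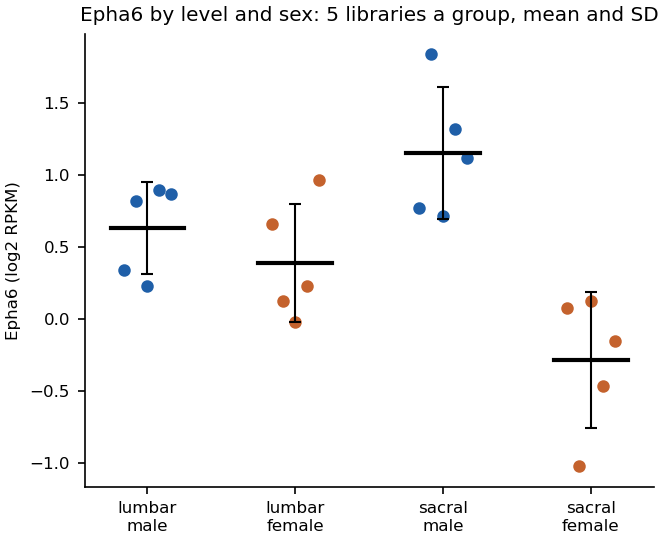
Epha6 by level and sex. The vertical axis is log2 RPKM, points are the 5 libraries of each group, long bars are means and error bars are SD. Sacral males lie between 0.72 and 1.84 and sacral females between -1.02 and 0.13, while the lumbar groups overlap.

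The interaction of level and sex, which asks whether the level difference depended on sex, had 0 called members and 0% of all tested genes called in limma, and 0 with voom. For Epha6 it was -1.20, with an unadjusted p of 0.000867 and an adjusted p of 0.995. At an unadjusted p below 0.05 there were 3 of the 32 members, Epha6, Robo4 and Ephb4, and 470 of all genes. In lumbar DRG 0 members differed between the sexes (0.33% of all tested genes called), and the smallest adjusted p in limma was 0.321, for Ephb4. Ephb3 and Ephb4 had an unadjusted p below 0.05 there, 2 of the 32, beside 1203 of all 14529 tested genes. In lumbar DRG, voom on recovered reads also called 0. Each of the 8 sacral genes had a positive mean difference in both sexes. They were called on the mean of both sexes in these same libraries, so this is no separate test. Slit3 had 0.92 ± 0.20 in males and 0.87 ± 0.69 in females (SD, n = 5 each), and Efnb3 had 0.92 ± 0.62 and 1.04 ± 0.66. Ephb4 was less even, with 0.63 ± 0.17 and 0.19 ± 0.39.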

How the data were processed

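Total RNA of each DRG sample was amplified with the Ovation RNA-Seq System v2, made into Nextera XT libraries and sequenced on a HiSeq2500. Per the submitters' processing notes and the study's methods, the authors aligned uniquely mapping reads to mm9 with Subread, counted them against Ensembl genes with featureCounts, and applied TMM scaling and voom. The deposited values are log2 RPKM for 37620 genes in 20 libraries, blank where a gene had no reads. Whether counting used strand is not given in the sources used here, so reads of overlapping genes are uncertain. Exons overlap those of another gene for Ephb4 (33 bases), Ntn1 (127) and Epha6 (107) among the genes called.

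Reads were recovered from the values with exon lengths of the GENCODE M1 annotation, and 98.27% of values came out whole within 0.05 reads. Blanks were set to 0.5 reads. The main fit used the log2 values and not the counts, and voom on the recovered reads was run as an alternative. Genes with a mean log2 RPKM of at least 0 (1 RPKM) in at least 1 group were kept, and limma 3.58.1 (R 4.3.3) fitted 4 group means with donor as a block, a trended prior and Benjamini-Hochberg adjustment at 0.05 over 14529 genes, as checked on simulated data. Contrasts were sacral minus lumbar, female minus male at each level, and their interaction. Both libraries of a donor came from 1 embryo, which is the source of the pairing. Deviations from the group means correlated by -0.113 to 0.69 within donors. All 40 genes were named, with full values for those past the threshold, the 2 most abundant per family and the one with the largest difference. Partner and marker lists were hand-picked. The members and lists were chosen with earlier results of these data known. Alternatives changed the block, filter, pseudocount, scaling, weights, covariates and donors.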

Additional observations from a re-analysis of the deposited data

Results flagged for a closer look

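In 6 of 128 groups of 5 libraries of the tested members, 1 library stood apart from the other 4 by most of the group's range, and chance alone flags about 1 in 20 such groups. Epha3 was 0.50 log2 RPKM in sacral M3, where the nearest male was 1.36, and 2.23 in sacral F7, where the nearest female was 1.40. Efna3 was 0.86 in sacral F7 (nearest 1.77). Efnb1 was 2.62 in sacral F9 (nearest 3.29). In lumbar M5, Efnb2 was 3.71 (nearest 4.39) and Robo2 was 1.86 (nearest 2.72). Donors M5 and F7 gave 4 of the 6, and their libraries were also the highest in mitochondrial rRNA, with means of 55.27% and 46.78% of reads. That share's part in these values was not tested.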

How the results depend on the processing

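Of 8 members called higher in sacral DRG, 3 passed with no replicate block (the paired design is from the labels), 4 with no filter, 0 with the fibroblast marker covariate, 0 with the glial marker covariate, 3 without the 2 donors highest in mitochondrial rRNA, and 3 to 9 without each donor in turn. Without F10 it was 3, and without M5 or F7 it was 5. With no filter and with each marker covariate, the calls over all genes fell as well. With donor as a fixed effect it was 6, and under the other 7 alternatives 8 or 9. The 4 partner genes became 0 with no block, 2 with no filter, 8 with sample weights, 1 and 0 with the fibroblast and glial covariates, 1 without those 2 donors, and 1 to 5 without each donor (2 without M1 or F3, 1 without M5 or F10). The sacral sex difference had 2 members with sample weights and 0 to 1 without each donor (0 without M3), and the lumbar sex difference and the interaction had 0 in each. The block changed no other call. The causes were not tested. Every called difference kept its sign, and members near 0 changed theirs. With quantile normalization Ephb3 was -0.01, Efna5 0.03, Robo2 0.01 and Ntng1 0.03. Centred on tested genes, Efna5, Robo2, Ntn3 and Ntng1 were 0.01 each. With the mitochondrial rRNA covariate, Robo2 and Ntn3 were 0.00 and Ntng1 0.01, and with sample weights Unc5b was -0.15. Without each donor in turn, differences spanned -0.03 to 0.22 for Epha5, -0.01 to 0.13 for Ephb3, -0.11 to 0.02 for Ephb6, -0.34 to 0.01 for Efna1, -0.12 to 0.12 for Efna2, -0.09 to 0.03 for Efna5, -0.04 to 0.08 for Slit2, -0.05 to 0.14 for Robo1, -0.10 to 0.03 for Robo2, -0.20 to 0.01 for Robo4, -0.14 to 0.07 for Ntn3, -0.09 to 0.03 for Ntng1 and -0.07 to 0.12 for Unc5b. Robo3 had at most 17 reads in a library, which limits what can be said of it.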

Other observations

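Summed over each family on the RPKM scale, the sacral to lumbar log2 ratio per embryo averaged 0.34 ± 0.19 (SD, n = 10) for the EphA receptors, higher in sacral DRG in 9 of 10 embryos, and 0.38 ± 0.23 for Dcc and Neo1, higher in 10 of 10. It was 0.23 ± 0.23 for the ephrin-Bs, 0.27 ± 0.28 for the Slits and 0.32 ± 0.38 for the netrins, each higher in 8 of 10, and 0.18 ± 0.26 for the EphB receptors, higher in 7 of 10. The netrin-Gs averaged -0.07 ± 0.41, higher in 5 of 10. The ephrin-As, the Robos and the Unc5 receptors each averaged 0.01, with SDs of 0.28, 0.29 and 0.36. These sums weight abundant genes most and were not tested.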
